A study of Mus musculus with 1111 samples.

Results

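Microglia in which reads of the MHC class II genes were found were compared with microglia in which none were found, within each of 3 groups sorted by their uptake of labelled plasma protein. A cell was called positive with at least 1 read of Cd74, H2-Aa, H2-Ab1 or H2-Eb1, and negative with 0 reads of all 4. The cells considered had 50000 reads or more in genes and reads of 500 genes or more. Of these 987 cells, 92 were positive (9.32%, 95% Clopper-Pearson interval 7.58% to 11.3%) and 895 were negative. The classes were chosen by the reads of these 4 genes, so the levels of the 4 are given as a description, and the comparison runs over all other genes. The classes are named after Cd74 for short, but 28 of the 92 positive cells had reads of an H2 gene and none of Cd74.

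MHC class II molecules carry peptides from proteins taken up by endocytosis to the cell surface, where CD4+ T cells read them. H2-Aa and H2-Ab1 encode the alpha and beta chains of I-A, and H2-Eb1 the beta chain of I-E. Cd74 encodes the invariant chain, which fills the groove of a new class II molecule and guides it to the endosome, where proteases such as cathepsin S trim it to a short remnant. H2-DM then exchanges that remnant for antigen peptide, and H2-O restrains H2-DM. In the healthy adult brain most parenchymal microglia carry little class II, border-associated macrophages and dendritic cells carry more, and class II is raised in subsets of microglia with age, infection and degeneration. Cd74 also binds the cytokine MIF at the cell surface.

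The cells came from brains of mice 3 months old, taken 20 hours after an injection of plasma proteins that had been coupled to the dye NHS-Atto647N. The sort used the intensity of the plasma signal within each cell, which gave plasma none, plasma low and plasma high, and 1 Smart-seq2 library was made from each cell. All groups come from injected animals, so no uninjected control enters here. No label names an animal, a strain or a sex. Each cell carries a number from 1 to 3 after the letters TH, whose meaning the labels do not give. Ratios were taken within each of the 9 sets of plasma group and TH number. Errors are the SD over the 3 TH numbers (n = 3) or over the 9 sets (n = 9), which is no spread between animals, so no p-value is given as a result. Within each TH number the plasma groups occupied separate blocks of plate columns, 1 to 8 for plasma none, 9 to 16 for plasma low and 17 to 23 for plasma high. Plate position and plasma group therefore cannot be told apart, while positive and negative cells of a set shared a block.

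A set held 6 to 14 positive and 80 to 110 negative cells. The summed reads of a positive class ran from 1528387 to 6111241 and those of a negative class from 19484043 to 46129053. Positive cells had a median of 272482 reads and 1874.5 genes, and negative cells 231394 reads and 1844 genes. The median depth was higher in positive cells in 7 of 9 sets, and the share of mitochondrial reads in 5 of 9. In plasma high the median depth was 300392 reads in positive and 264756 in negative cells, and the mitochondrial share was 1.07% and 0.942%. The part of depth and mitochondrial share in the differences below was not tested. Depth was set equal in the shares thinned to 50000 reads per cell, and some settings below match the negative cells in reads or ask for more reads per cell.

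Positive cells were most frequent in plasma high. In plasma none 26 cells were positive and 320 negative (7.51% positive, with an exact 95% interval of 4.97% to 10.8%). Plasma low had 26 positive cells, or 7.41% (4.90% to 10.7%), and plasma high had 40 of 290, or 13.8% (10.04% to 18.3%). In TH 1, 2 and 3 the share was 7.76%, 5.31% and 9.40% in plasma none. It was 6.78%, 7.69% and 7.76% in plasma low, and 13.9%, 13.5% and 13.98% in plasma high. Every plasma high value lay above all 6 values of the other groups, whose own values overlapped. Averaged over TH numbers, the share was 7.49% ± 2.06, 7.41% ± 0.547 and 13.8% ± 0.226 in plasma none, low and high (SD, n = 3). The excess of plasma high was 6.30 ± 1.84 percentage points over plasma none (6.10, 8.23 and 4.58 by TH number) and 6.38 ± 0.632 points over plasma low. Plasma low and plasma none differed by −0.0798 ± 2.16 points, less than the spread between TH numbers. These intervals cover counting error only.

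A cell with more reads reaches 1 read of a gene more easily. Had each cell given 50000 reads, the expected share was 7.39% ± 1.94, 6.79% ± 0.234 and 13.3% ± 0.657 in plasma none, low and high. Plasma high then lay 5.95 ± 1.88 points above plasma none and 6.55 ± 0.441 points above plasma low. With the cells of each group split into 3 bands of equal size by depth, plasma high held 9.28%, 15.6% and 16.5% positive cells from the shallowest to the deepest band. Plasma none held 3.45%, 11.3% and 7.83%, and plasma low 5.13%, 5.98% and 11.1%. In each band the share was highest in plasma high. The bands were made within each group, so they are not matched in depth. Their median reads were 133252, 267143 and 531377 in plasma high, 110970, 209161 and 352919 in plasma none, and 118074, 229931 and 408036 in plasma low. The share in the shallowest band of plasma high lay below that in the middle band of plasma none and the deepest of plasma low.

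**Figure D1:**
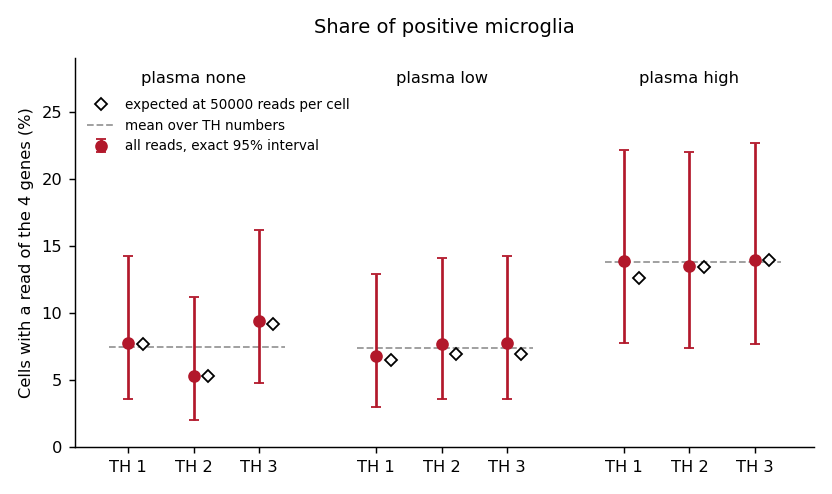
Share of cells with a read of any of the 4 genes (%, vertical axis) by plasma group and TH number, with exact 95% intervals, the share expected at 50000 reads per cell as diamonds and the mean over TH numbers as dashed lines. All 3 plasma high points sit between 13.5% and 13.98%, and those of plasma none and plasma low between 5.31% and 9.40%.

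Most of the positive cells owed their class to Cd74. Cd74 (ENSMUSG00000024610, chromosome 18, 60803848 to 60812652, mm10) was read in 64 cells, H2-Ab1 (chromosome 17, 34257689 to 34269419) in 34, H2-Eb1 (chromosome 17, 34305867 to 34316674) in 3 and H2-Aa (chromosome 17, 34282744 to 34287823) in 1. Cells with a Cd74 read numbered 4, 3 and 8 in TH 1, 2 and 3 of plasma none, 5, 6 and 7 in plasma low, and 10, 12 and 9 in plasma high. The share with Cd74 was thus 4.34%, 5.13% and 10.7% in plasma none, low and high, and the share with H2-Ab1 2.60%, 2.28% and 5.86%. Over all cells of a set, Cd74 stood at 3.43, 2.46 and 15.3 CPM in plasma none, at 15.2, 5.37 and 126.4 in plasma low, and at 54.9, 29.6 and 36.1 in plasma high. CPM scale the reads of each gene by the total over genes. The value of 126.4 came from a set that holds the cell described below, and without it the pooled level of Cd74 in plasma low fell from 38.8 to 8.70 CPM.

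Most positive cells held more than a few reads of the 4 genes. Positive cells held a median of 36 reads of the 4 genes, with medians of 33.5, 35 and 44.5 in plasma none, low and high. Just inside the threshold lay 2 cells with 1 read, and just outside it the 895 cells with 0. In all, 10 positive cells had 1 to 9 reads, 58 had 10 to 99 and 24 had 100 or more. Only 1 of the 4 genes was read in 83 of the 92 cells, 2 genes in 8 cells, all of plasma high, and 3 genes in 1 cell of plasma low. H2-Ab1 was read in 8 of 31 cells with Cd74 in plasma high (25.8%), in 1 of 18 in plasma low (5.56%) and in 0 of 15 in plasma none. Among cells with no Cd74 read, H2-Ab1 was found in 3.47% of plasma high, 2.10% of plasma low and 2.72% of plasma none. The invariant chain and the I-A beta chain were thus read together mainly in plasma high, and this difference between groups was not tested.

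**Figure D2:**
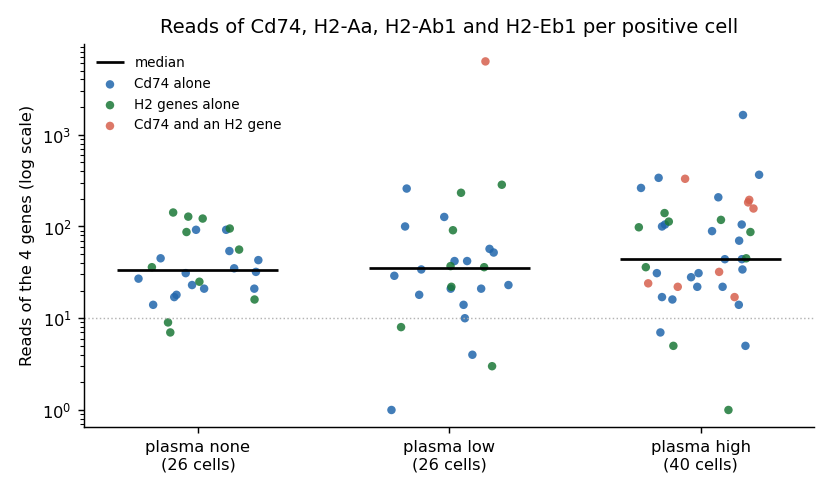
Reads of Cd74, H2-Aa, H2-Ab1 and H2-Eb1 summed per positive cell (log scale, vertical axis) in the 26, 26 and 40 positive cells of plasma none, low and high, coloured by whether Cd74, an H2 gene or both were read, with medians as black lines and 10 reads as the dotted line. Most cells lie between 10 and 99 reads, the 8 cells of plasma high with both kinds have no counterpart in plasma none, and 1 cell of plasma low lies at 6295 reads.

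A single cell of plasma low, in TH 3, stood far from the others. It held 2980 reads of Cd74, 2645 of H2-Ab1 and 670 of H2-Aa, together 43.8% of all reads of the 4 genes in the data. It had 7 of the 8 microglia markers at 10 CPM or more, with P2ry12 at 3237 CPM, and Sall1 just under that at 9.96 CPM. It had no read of the markers of border-associated macrophages, monocytes or B cells. Among the dendritic cell markers it had Fscn1, an actin-bundling protein, at 236.3 CPM. Cathepsin S (Ctss) was at 7516 CPM, and Ciita, the transactivator of class II genes, was at 0. Its disease-associated list, described below, summed to 14690 CPM, below the median of the negative cells of its group, 23075 CPM.

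Both classes carried microglia markers. At least 6 of 8 markers (among them P2ry12, Tmem119, Sall1, Siglech, Gpr34, Fcrls and Olfml3) reached 10 CPM in 89 of 92 positive cells (96.7%) and in 883 of 895 negative cells (98.7%). The summed level of the 8 markers was lower in positive cells, with 39449 ± 4999 against 43966 ± 1929 CPM for the median cell of a set (SD, n = 9), and lower in 8 of 9 sets. No positive cell had 3 or more markers of another cell type, 0 of 92, which allows a share of up to 3.26%, and 8 of 895 negative cells did (0.894%). Monocyte (8 of 8), T and NK cell (10 of 10) and neutrophil markers (8 of 8) were all at 0 in the positive sums.

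Border-associated macrophages, dendritic cells and B cells are the class II carriers that a brain sort could include. The 10 border-associated macrophage markers summed to 6.09 CPM in positive and 5.94 CPM in negative cells, with ranges over the sets of 0 to 21.9 and 0 to 26.6. In positive cells 7 of the 10 were at 0, among them Pf4, F13a1, Lyve1, Cd163 and Ms4a7, and Mrc1, Folr2 and Cbr2 had reads. Mrc1 stood at 4.22 against 0.135 CPM in plasma none and at 4.71 against 11.3 CPM in plasma low, in positive and negative cells. Folr2 stood at 7.55 against 3.55 CPM in plasma high. The 11 dendritic cell markers summed to 145.7 CPM in positive (60.4 to 373.9) and 182.3 CPM in negative cells (107.7 to 271.8). Most of both came from Fscn1. In positive cells 6 of the 11 were at 0, among them Xcr1, Clec9a, Cd209a and Ccr7, and Flt3, Zbtb46, Itgae and Batf3 had some reads. The B cell list summed to 16.9 and 44.8 CPM, nearly all of it Cd79b. In positive cells 5 of its 7 genes were at 0, among them Cd79a, Ms4a1 and Pax5, and Ebf1 had some reads. Of the remaining types, astrocyte markers summed to 17.5 and 6.15 CPM, oligodendrocyte markers to 74.2 and 58.7 CPM, and endothelial markers to 16.1 and 17.2 CPM.

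In plasma high, positive cells carried more RNA of the genes that are raised in microglia of diseased brains. This disease-associated microglia list holds 25 genes, among them the lipid carrier Apoe, the receptor tyrosine kinase Axl, the lipase Lpl, the cathepsins Ctsb, Ctsd and Ctsz and the tetraspanins Cd9 and Cd63. Each cell's level was taken in CPM of its own reads. The summed level of the list in the median positive cell was 30917, 46251 and 33554 CPM in TH 1, 2 and 3. In the median negative cell it was 23869, 24511 and 19639 CPM. All 3 positive values lay above all 3 negative values, at 36908 ± 8199 against 22673 ± 2647 CPM, a fold of 1.63 ± 0.304 (SD, n = 3; 1.30 to 1.89). The single cells overlapped widely: 62.5% of the positive cells of plasma high lay above the upper quartile of the negative cells. Leaving out Apoe gave a fold of 1.47, and leaving out Ctsd gave 1.92. The number of list genes read at 50000 reads per cell had a median of 10, 12 and 11 in positive and 10, 9 and 9 in negative cells of TH 1, 2 and 3, so it did not differ in TH 1.

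The same sum differed less in the other groups. In plasma none the median positive cell had 21482, 27432 and 21329 CPM and the median negative cell 23295, 21299 and 18499 CPM. The values overlapped, and the fold was 1.12 ± 0.185, with positive cells higher in 2 of 3 TH numbers. In plasma low the values were 33093, 24959 and 21916 CPM in positive and 24410, 24077 and 20389 CPM in negative cells. There the fold was 1.16 ± 0.174, higher in 3 of 3 TH numbers, and with at least 100000 reads and 1000 genes asked of each cell it was 0.971. In both groups 42.3% of the positive cells lay above the upper quartile of the negative cells. Over all 9 sets the fold was 1.30 ± 0.316, higher in 8 of 9. Whether the fold differs between plasma groups was not tested.

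**Figure D3:**
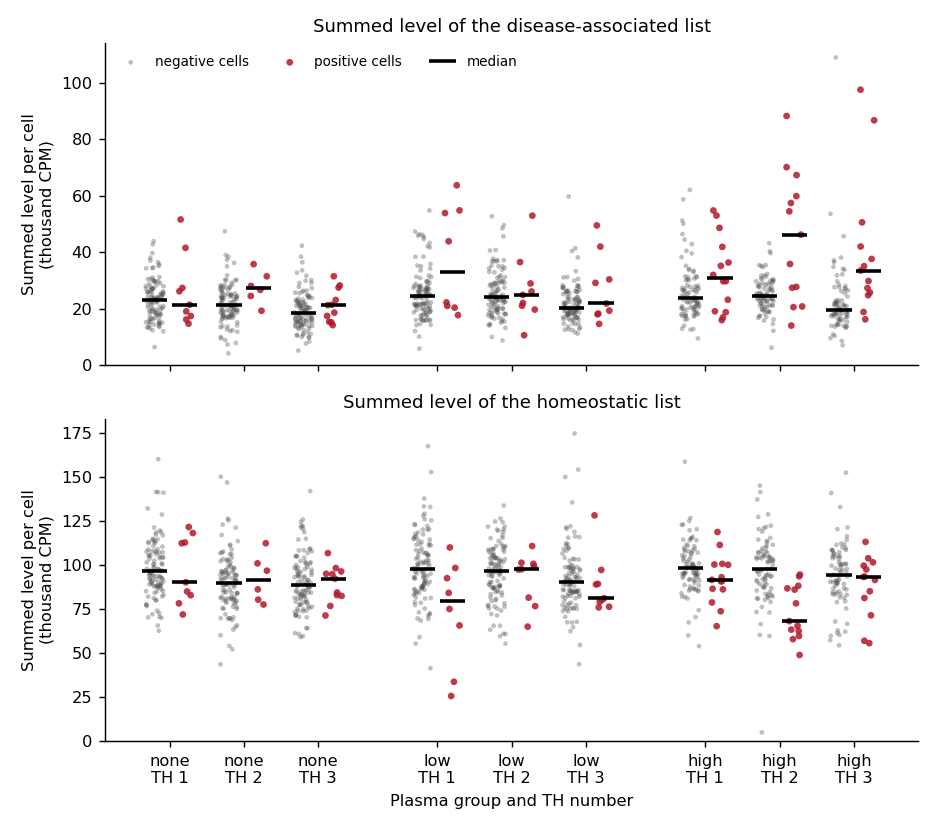
Summed level of the disease-associated list (upper panel) and of the homeostatic list (lower panel) per cell, in units of 1000 CPM on linear axes, for each negative (grey) and positive cell (red) by plasma group and TH number, with set medians as black lines. The disease-associated medians of positive cells lie above those of negative cells in all 3 plasma high sets and in 8 of 9 sets in all, with wide overlap of single cells.

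Gene by gene, the share of cells with a read at 50000 reads per cell gives the members found in more positive cells. It does not show how much each member adds to the summed level, since genes read in nearly every cell can differ only in level. In plasma high 1064 of 7182 genes (14.8%) were found in a larger share of positive than of negative cells in 3 of 3 TH numbers, and 882 (12.3%) in a smaller share. Of the 17 list members measured, 8 were in the first set (Apoe, Axl, Cd52, Cd63, Cd9, Ccl6, Lyz2 and Ank) and 0 in the second. The median difference was 9.90 percentage points over the list and 0.785 over all genes, and 16 of 17 differences were above 0. In plasma low 9 of 17 members were higher in 3 of 3 TH numbers, where 15.6% of all genes were and 9.59% were lower, with a median of 7.71 against 2.5 points. In plasma none 2 of 12 were (Apoe and Ctsz), where 12.1% of all genes were and 13.3% were lower, with a median of 2.05 against 0.967 points. No measured member was lower in 3 of 3 TH numbers in any of the groups. A gene was measured if 10% or more of a class had a read of it, so a gene rare in negative cells entered only where positive cells held it, and these counts are a description.

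Apoe (ENSMUSG00000002985, chromosome 7, 19696109 to 19699188), which encodes the main lipid carrier of the brain, was the member found more often in positive cells in 9 of 9 sets, where 0.239% of all genes were and 0.255% were found less often in 9 of 9. In plasma high it was read in 35.7%, 53.8% and 61.5% of positive cells in TH 1, 2 and 3 and in 21.8%, 24.1% and 23.8% of negative cells. In plasma low the shares were 25%, 22.2% and 22.2% against 16.4%, 12.96% and 12.1%, and in plasma none 11.1%, 16.7% and 18.2% against 6.54%, 8.41% and 7.55%. The positive and negative shares did not overlap in any group. The level of Apoe in plasma high was 1056, 2836 and 8150 CPM in the positive sums and 589, 258.6 and 1420 CPM in the negative sums. That is a mean log2 ratio of 2.27 ± 1.32 (SD, n = 3), and 2.33 with the cell holding the most Apoe reads left out of each sum, which is meant wherever a value is given without the richest cell. In plasma none the mean level was 93.4 CPM in positive and 106.1 CPM in negative cells, a log2 ratio of −0.35 ± 0.60, so the level there did not follow the share of cells.

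Axl (ENSMUSG00000002602, chromosome 7, 25757273 to 25788705), a receptor that takes part in the uptake of dying cells, stood at 214.2, 98.8 and 155.3 CPM in the positive sums of plasma high in TH 1, 2 and 3. The negative sums had 17.4, 15.5 and 29.4 CPM. The groups did not overlap, and the log2 ratio was 2.84 ± 0.63, or 2.07 without the richest cell. Axl was read at equal depth in 25% of positive and 5.60% of negative cells of plasma high. The shares were 15.4% and 2.15% in plasma low and 7.69% and 0.938% in plasma none. The Axl ratio also met the size rule in plasma low, at 2.39 ± 1.19, but was −0.07 there without the richest cell.

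Cd52, which encodes a small surface glycoprotein, was read in 78.6%, 84.6% and 61.5% of positive cells of plasma high in TH 1, 2 and 3. The negative cells had 44.8%, 33.7% and 41.2%, all below the positive values. Its level did not separate the classes as clearly, with 139.1, 153.2 and 151.5 CPM against 178.3, 72.1 and 73.6 CPM. Cd63, which encodes a tetraspanin of late endosomes, was read in 71.4%, 76.9% and 92.3% of positive and 66.7%, 60.2% and 57.5% of negative cells. Its level was 679, 772 and 653 CPM against 405, 390 and 306.9 CPM, a log2 ratio of 0.94 ± 0.18 that is larger than the spread between TH numbers but under the size rule.

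The cathepsins of the list were read in nearly every cell, so only their levels could differ. In plasma high Ctsb, a lysosomal cysteine protease, stood at 5855, 9229 and 6142 CPM in positive and 3746, 4251 and 3228 CPM in negative sums, a log2 ratio of 0.90 ± 0.24. Ctsd, the main aspartic protease of the lysosome, had a ratio of 0.45 ± 0.30. The ferritin heavy chain gene Fth1 had 2877, 3754 and 2898 CPM against 2208, 1474 and 1411 CPM, a ratio of 0.92 ± 0.49. All positive values of Ctsb and of Fth1 lay above all negative values. The receptor gene Trem2, on which much of the disease-associated state is known to depend, had −0.06 ± 0.18, with positive and negative sums overlapping (938, 1193 and 1034 against 1072, 1298 and 936 CPM). Its signalling partner Tyrobp had 0.43 ± 0.06.

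**Figure D4:**
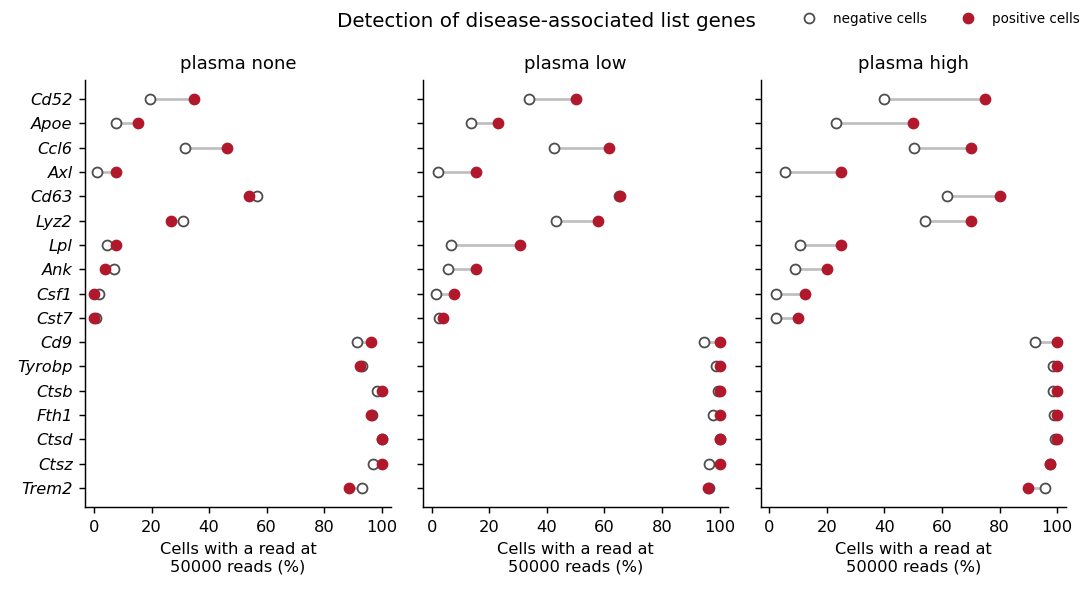
Share of positive (filled) and negative cells (open) with a read of each disease-associated list gene at 50000 reads per cell (%, horizontal axis), by plasma group. In plasma high the filled points lie to the right for Cd52 (75% against 40%), Apoe (50% against 23.2%) and Axl (25% against 5.60%), and the genes of the lower rows are near 100% in both classes.

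Homeostatic microglia genes were somewhat lower in positive cells of plasma high. This list of 20 genes includes the purinergic receptor gene P2ry12, the fractalkine receptor gene Cx3cr1 and Tmem119, which mark resting microglia, and all 8 microglia markers above are in it. The median positive cell had 91385, 68307 and 93386 CPM of the list in TH 1, 2 and 3 of plasma high, and the median negative cell 98516, 98000 and 94629 CPM. Positive cells were lower in 3 of 3, but only TH 2 stood far apart, and the fold was 0.870 ± 0.153. It was 0.907 ± 0.0972 in plasma low, 0.998 ± 0.0555 in plasma none and 0.925 ± 0.111 over all sets, lower in 6 of 9. At equal depth 4 of 20 genes (where 12.3% of all genes were) were read in fewer positive cells in 3 of 3 TH numbers of plasma high, Tgfbr1 (77.5% against 87.2%), Slc2a5 (57.5% against 70.4%), Siglech (92.5% against 98%) and Mef2c (72.5% against 78%). Gpr34 was read in more. In plasma none 4 of 20 were read in more positive cells and 0 in fewer, where 12.1% and 13.3% of all genes were.

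On the class sums of plasma high, 19 of 20 homeostatic genes had a log2 ratio under 0, with a median of −0.44, and none met the size rule. All genes with at least 200 CPM had a median of −0.06. P2ry12 stood at 7205, 2677 and 7150 CPM in positive and 9140, 10915 and 9206 CPM in negative sums, a log2 ratio of −0.91 ± 0.97 that TH 2 made large. Cx3cr1, with 5745, 5956 and 5857 against 7183, 7804 and 7172 CPM, had −0.33 ± 0.05. Olfml3 had 2541, 2240 and 2593 against 3591, 3415 and 3692 CPM and −0.54 ± 0.06. For Cx3cr1 and Olfml3 no positive value reached a negative one, and the difference was larger than the spread between TH numbers, though under the size rule. With DESeq2 size factors the list median was −0.28 and the median of the abundant genes 0.11. On the sums of plasma none and plasma low, 20 of 20 list genes were under 0, with medians of −0.35 and −0.38. There 2 and 1 of them met the size rule as lower, and the abundant genes had medians of −0.37 and −0.22. By this measure the fall was thus not particular to plasma high.

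Among the positive cells, those with Cd74 reads carried more of the disease-associated list than those with H2 reads alone. In plasma high the median cell had 35870 CPM in the 23 cells with Cd74 alone, 35794 CPM in the 8 with Cd74 and an H2 gene, 23235 CPM in the 9 with H2 genes alone and 22889 CPM in the 250 negative cells. Over all groups the values were 28125 CPM (55 cells), 35210 CPM (9 cells), 22760 CPM (28 cells) and 22261 CPM (895 cells). In plasma none the order turned, with 21482 CPM in 15 cells with Cd74 alone and 26243 CPM in 11 with H2 genes alone. By the number of reads of the 4 genes, the median was 20254 CPM in 10 cells with 1 to 9 reads, 27442 CPM in 58 with 10 to 99 and 34382 CPM in 24 with 100 or more. These bands also differed in depth, with median totals of 217711, 232927 and 371730 reads, and in plasma group, with 15 of the 24 cells in plasma high. Within plasma high the medians by band were 21193, 35870 and 35210 CPM, and within plasma none 24506, 21482 and 26740 CPM. Within plasma low they were 18860, 26977 and 31351 CPM, so the rise over all bands was seen in plasma low only. Cells of 1 set share their source, so these values describe the cells and carry no test.

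The other genes of class II presentation were mixed. Of 23 listed genes, 6 of the 17 measured (35.3%, where 14.8% of all genes were) were read in more positive cells in 3 of 3 TH numbers of plasma high, and 2 in fewer (11.8%, where 12.3% of all genes were). In plasma low 3 were higher and 3 lower of 17 (17.6% each), where 15.6% and 9.59% of all genes were. In plasma none 1 was higher (6.25%) and 2 lower (12.5%) of 16, where 12.1% and 13.3% of all genes were. On the sums, 1 of 15 tested met the size rule as higher in plasma high, where 3.22% of all genes did. Ciita was read in 0 of 92 positive cells (up to 3.26%) and 0 of 895 negative cells, and H2-Eb2 was also at 0, so the transactivator was not detectable at this depth. Cathepsin S (Ctss), which trims the invariant chain, was read in all cells of both classes at equal depth. It stood at 10065, 9772 and 10694 CPM in positive and 9698, 9619 and 8936 CPM in negative sums of plasma high, a log2 ratio of 0.11 ± 0.13.

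The peptide exchange genes split. H2-DMa (chromosome 17, 34119541 to 34139101) had 212.1, 192.04 and 222.7 CPM in positive and 366.4, 291.97 and 327.04 CPM in negative sums of plasma high. Positive values were all lower, at −0.65 ± 0.12, and the ratio was −1.58 ± 1.43 in plasma none, past the size rule, but 0.06 there with equal cell numbers matched in reads. At equal depth H2-DMa was read in 55.4% of positive and 53.97% of negative cells. H2-DMb1 was read in 30.4% against 37.9%, lower in 8 of 9 sets, and H2-DMb2 in 11.96% against 5.25%, higher in 8 of 9. H2-DMb2 (chromosome 17, 34143307 to 34151555) had 43.05, 158.3 and 130.9 CPM in positive and 19.3, 23.3 and 26.5 CPM in negative sums of plasma high, a ratio of 2.03 ± 0.82. Those positive reads came from 6 of 40 cells, 46.8% of them from 1, and without the richest cell of each sum the ratio was 0.00. H2-DMb1 and H2-DMb2 are close paralogs that encode the beta chain of H2-DM, and how the counting divided reads between them is not stated, so their opposite values are uncertain. H2-Oa, the alpha chain of the H2-DM inhibitor, was read in 3.26% of positive and 9.16% of negative cells, lower in 8 of 9 sets. In plasma low it was read in 0 of 26 positive cells, which allows up to 11.5%, and in 12% of negative cells.

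Among the costimulatory genes, Cd86, a ligand of CD28, was read at equal depth in 71.4%, 69.2% and 69.2% of positive and 50.6%, 51.8% and 55% of negative cells of plasma high. Its level did not follow, at 432 against 516 CPM and −0.37 ± 0.43. Cd83, which keeps class II at the cell surface, was read in 50%, 61.5% and 38.5% against 43.7%, 25.3% and 36.3%. Its level was 1086, 2140 and 380 CPM against 400, 238.99 and 481 CPM, a ratio of 1.42 ± 1.75 with the classes overlapping, and 0.04 without the richest cell. March1, the ubiquitin ligase that takes class II off the surface, was read in 10% of positive and 24% of negative cells of plasma high, and in 30.8% and 21.2% of plasma low. Creb1, one of the factors that bind class II promoters, was read in 21.7% against 11.4% over all groups, higher in 8 of 9 sets. Cd40 was read in 0 positive cells and 1 negative cell.

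Several class I genes were read in more positive than negative cells of plasma high. Class I molecules present peptides of the cell's own proteins to CD8+ T cells. Of 19 class I presentation genes measured, 7 (36.8%) were read in more positive cells in 3 of 3 TH numbers (H2-K1, H2-D1, Tap1, Psmb8, Psme1, Calr and Pdia3) and 0 in fewer. Of all genes 14.8% were higher and 12.3% lower, and the median difference was 3.96 points against 0.785 over all genes. On the sums, 0 of 18 tested met the size rule as higher and 1 as lower, where 3.22% and 13.5% of all genes did. H2-D1 (chromosome 17, 35262730 to 35267499), a classical class I heavy chain, stood at 3293, 2471 and 1455 CPM in positive and 1335, 1367 and 1172 CPM in negative sums, a log2 ratio of 0.82 ± 0.50. All 3 positive values were above all negative ones. H2-K1, the other classical heavy chain, had 1160, 1307 and 582 CPM against 529, 650 and 599 CPM, higher in 2 of 3, at 0.70 ± 0.64. Reads of these near-identical class I genes may be divided between copies in a way that is not stated. Psmb8, an immunoproteasome subunit, was read in 65% against 38.8% of cells, Psme1, a proteasome activator subunit, in 52.5% against 32%, and Tap1, a peptide transporter subunit, in 22.5% against 10%. H2-D1 was read in 92.3% against 84% of cells in plasma low and in 61.5% against 70.3% in plasma none, so its direction turned there. By the same count the class I list had 3 genes higher (15.8%) and 0 lower of 19 in plasma low, where 15.6% and 9.59% of all genes were. In plasma none it had 2 higher (11.8%) and 1 lower of 17, where 12.1% and 13.3% of all genes were. The higher counts of these 2 groups were thus near the share over all genes.

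The interferon lists held few genes that separated the classes. In plasma high 1 of 11 interferon gamma genes was higher in 3 of 3 TH numbers by share of cells and 1 lower, and 2 of 7 type I interferon genes were higher, where 14.8% of all genes were higher and 12.3% lower. Stat2, a transcription factor of type I interferon signalling, stood at 20.05, 113.3 and 32.1 CPM in positive and 6.58, 14.2 and 15.7 CPM in negative sums, a log2 ratio of 1.79 ± 0.996, and was read in 20.0% against 4.80% of cells. Without the richest cell the Stat2 ratio was 0.89, under the size rule. Jak1, a kinase shared by interferon receptors, fell from 392, 325.3 and 272.5 CPM in negative to 56.1, 84.4 and 162.4 CPM in positive sums, at −1.82 ± 1.02. The groups did not overlap for Stat2 or for Jak1. In plasma low the largest rise of any gene named was Gbp2, an interferon-induced GTPase, at 5.04 ± 1.95 (85 against 3.27 CPM), from reads of 3 positive cells. The Gbp2 ratio was −0.28 without the richest cell.

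Several chemokine genes had higher mean levels in positive cells of plasma high, with much of the reads in 1 cell. Ccl3 stood at 69.2, 850 and 17.9 CPM in positive and 24.2, 2.75 and 13.7 CPM in negative sums, a log2 ratio of 3.22 ± 4.03, and 1 cell held 91.3% of the positive reads. Ccl12 stood at 59.7, 611 and 310.7 CPM against 33.8, 53.1 and 68.1 CPM, at 2.16 ± 1.35, and −0.21 without the richest cell. Ccl5 stood at 146.7, 17.5 and 0 CPM against 3.54, 0 and 1.01 CPM, with both signs among the TH numbers, and its ratio of 2.74 ± 3.27 was 2.40 without the richest cell. Ccl4 had 3.47 ± 8.17, and 1.19 without the richest cell, which held 90.8% of the positive reads. By share of cells 2 of 11 cytokine and chemokine genes were higher in 3 of 3 TH numbers, Ccl3 and Cxcl16, where 14.8% of all genes were.

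The remaining lists were set against all genes in plasma high, of which 14.8% were higher and 12.3% lower by share of cells in 3 of 3 TH numbers. By that measure 4 of 23 lysosome genes were higher and 0 lower, and 1 of 12 complement and Fc receptor genes was higher. Endocytosis and plasma protein receptor genes had 0 of 16 in either direction, and immediate early genes 0 of 8. On the sums, all genes with at least 5 CPM had a median log2 ratio of −0.78, and the abundant genes named above −0.06. The medians were 0.08 for lysosome, 0.16 for ribosomal proteins, 0.08 for the mitochondrial genome, 0.16 for complement and Fc receptors, −0.41 for endocytosis and −0.43 for immediate early genes. The median of the disease-associated list was 0.57 with 19 of 20 genes above 0, and 0.72 with DESeq2 size factors. On the sums that list stood at 0.39 in plasma low and −0.16 in plasma none, where the level of the median cell had the opposite sign. Without the richest cell it was 0.49 in plasma high but turned to −0.27 in plasma low. With equal cell numbers matched in reads it was 1.11 in plasma high and 1.43 in plasma low, and turned to 0.49 in plasma none. In plasma high the median of the other class II genes was −0.36 with 5 of 20 above 0. Proliferation genes had −2.04 there, with only 3 of 15 genes abundant enough to be tested. Several medians of plasma high turned with the setting. Without the richest cell all genes had −1.86, lysosome −0.32, mitochondrial genome −0.15, and complement and Fc receptors −0.13. With equal cell numbers matched in reads all genes had 0.05, endocytosis 0.13, immediate early genes 0.004 and the other class II genes 0.19.

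Over all genes, far more genes were lower than higher in the positive sums. The size rule asked for 4 things: an average log2 ratio of 1 or more in either direction (on CPM with a pseudocount of 1), one sign in all 3 TH numbers, an average level of 20 CPM or more, and reads in 10% or more of the cells of a class. In plasma none 1296 of 5432 genes (23.9%) met it, 1193 of them lower (22% of genes) and the others higher (1.9%). In plasma low 1172 of 6011 genes (19.5%) did, 1027 lower (17.1%) and the others higher (2.41%). In plasma high 998 of 5985 genes (16.7%) did, 805 lower (13.5%) and the others higher (3.22%). Over all groups, where at least 8 of 9 sets had to share the sign, 479 of 5587 genes (8.57%) did, 478 lower (8.56%) and 1 higher (0.0179%).

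The split between higher and lower was not kept when the negative cells were reduced to the number of the positive cells and matched to them in reads, which changes both at once. With as many negative as positive cells in each set, matched in reads, 513 genes were higher and 474 lower in plasma none, 608 and 519 in plasma low, 574 and 548 in plasma high, and 62 and 47 over all groups. Of the higher genes called with all negative cells, 69.9%, 63.4% and 65.8% were also called with equal cell numbers in plasma none, low and high, but of the lower genes only 21.96%, 27.9% and 33.4%, and 5.23% over all groups. Higher genes made up 7.95%, 12.4%, 19.3% and 0.209% of the calls in plasma none, low, high and over all groups. With library size scaling they made up 16.7%, 17.8%, 21.3% and 0.549%, with DESeq2 size factors 22.6%, 26.8%, 30.2% and 2.46%, and at equal cell numbers 51.98%, 53.9%, 51.2% and 56.9%. The median log2 ratio of all genes with at least 5 CPM was −1.73, −1.20 and −0.78 in plasma none, low and high, and 0.07, 0.19 and 0.05 with equal cell numbers. In genes with at least 200 CPM, 14 were higher and 21 lower of 843 in plasma high, and 0 and 18 of 816 over all groups. Most of the lower genes were thus not called at equal cell numbers.

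**Figure D5:**
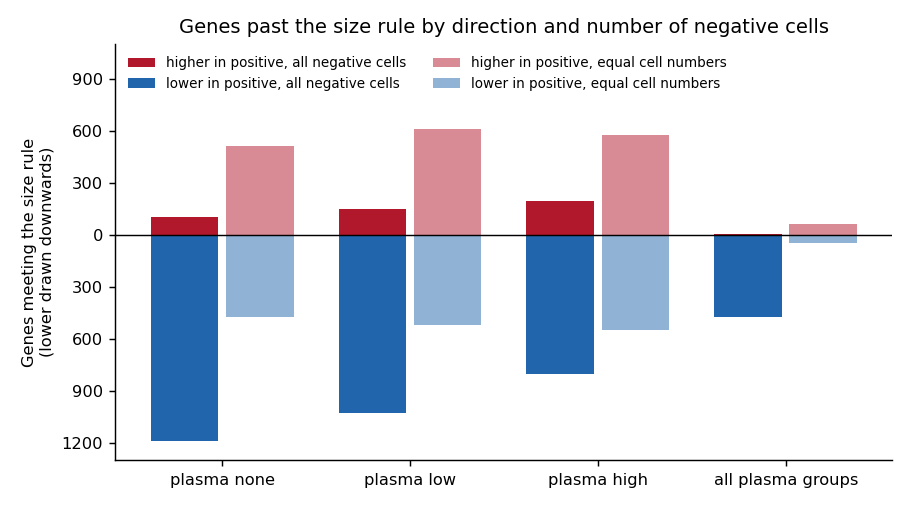
Genes that met the size rule in positive against negative cells (vertical axis, number of genes, higher drawn upwards and lower downwards) for each plasma group and all groups, with all negative cells (dark) and with equal cell numbers (light). With all negative cells the lower genes outnumber the higher ones, with 805 of 998 calls lower in plasma high, and with equal numbers the bars are nearly even, 574 to 548.

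The largest rises differed between plasma groups and mostly came from few cells. In plasma high Cybb (chromosome X, 9435252 to 9487771), the catalytic subunit of the phagocyte NADPH oxidase, rose by 5.14 ± 4.10 on the log2 scale. It stood at 209.3, 411 and 47.4 CPM in positive and 2.11, 0 and 29.99 CPM in negative sums, and was read in 8 of 40 positive cells (20.0%) and 4 of 250 negative cells (1.60%). Over all groups Cybb was read in 10 of 92 positive and 4 of 895 negative cells, with 0 cells of either class in plasma none. Without the richest cell the ratio was 2.41. Fam20c, a kinase of secreted proteins, rose by 4.86 ± 0.85 (56.1 against 1.69 CPM) in 4 positive cells, and Slc39a4, a zinc transporter, by 4.80 ± 1.08 (74.4 against 1.85 CPM) in 5. Without the richest cell these ratios were 1.21 and 1.17.

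In plasma low Coq7 (chromosome 7, 118509659 to 118533356), an enzyme of ubiquinone synthesis, rose by 4.51 ± 1.92, with 39.1, 73.6 and 348.9 CPM in positive and 2.05, 7.61 and 2.38 CPM in negative sums. It was read in 6 of 26 positive cells, and 1 cell held 70.8% of the reads. Lpl (chromosome 8, 68880491 to 68907448), the lipoprotein lipase, stood at 4497, 73.3 and 79.4 CPM in positive and 17.6, 22.8 and 68.9 CPM in negative sums of plasma low, a ratio of 3.25 ± 4.10. A single cell held 89.96% of those reads, and without the richest cell the ratio was −0.35. By share of cells Lpl was nevertheless higher in 3 of 3 TH numbers, at 30.8% of positive and 6.77% of negative cells. In plasma none Tmem150a (4.003 ± 1.78), the zinc finger gene Zfp384 (3.45 ± 1.93) and Trub1 (3.34 ± 2.33), a pseudouridine synthase, rose most, with 67.1%, 76% and 60.1% of the reads in 1 cell.

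Few of the higher calls were shared between plasma groups, where 1.9%, 2.41% and 3.22% of all genes were called higher. Taok3 was called in plasma none and plasma low, 0.971% of the former and 0.690% of the latter. Chfr, Iars2, Rap2b, Reep4 and Wdsub1 were called in plasma none and plasma high, 4.85% and 2.59%. Axl, Ank, D10Wsu102e, Fxyd5, Igbp1, Phf11d and Tubb6 were called in plasma low and plasma high, 4.83% and 3.63%. No gene was higher by the rule in all 3 groups, and 34 were lower in all 3. Of the lower calls, plasma none and plasma low shared 18.9% of the former and 21.9% of the latter, plasma none and plasma high 15.1% and 22.4%, and plasma low and plasma high 15% and 19.1%, where 22%, 17.1% and 13.5% of all genes were called lower. Without the richest cell, 8, 4 and 11 of the higher genes of plasma none, low and high were still called.

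Taok3 (chromosome 5, 117120129 to 117275219), a kinase of the TAO family, was the 1 gene that rose over all groups by the size rule. It had 207.8 CPM in positive and 78.9 CPM in negative cells, at 1.24 ± 0.88 (SD, n = 9), above 0 in 8 of 9 sets. At equal depth it was read in 46.2% against 16.3% of cells in plasma none, 30.8% against 16.9% in plasma low and 22.5% against 18.4% in plasma high, higher in 9 of 9 sets. Without the cell with the most reads of the 4 genes it did not pass the rule, and without the richest cell of Taok3 its ratio was 0.16. Overlapping genes are annotated at Taok3 (2) and H2-DMa (4), and the use of strand in counting is not stated.

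Falls reached the edge of what so few positive cells can show. In plasma none Vps54, a subunit of an endosome-to-Golgi tethering complex, had no read in 26 positive cells and was at least 420-fold lower by a floor of 3 reads over the group. Such a floor covers counting error only, since reads of 1 cell are no independent molecules, and it does not bound the level over other cells of the class. Sumo3 was at least 228.2-fold lower there, Txnl4b at least 435-fold in plasma low, and Ginm1 at least 463-fold in plasma high. A count of 0 among 26 cells still allows a share of up to 11.5% of cells with a read, and 0 of 40 up to 7.5%. Over all groups the largest falls were those of Ralgps2 (−4.47), Fech (−4.46), the last enzyme of heme synthesis, Insr (−4.36), the insulin receptor, Fam120a (−4.36) and Elp2 (−4.30). With equal cell numbers matched in reads these 5 were lower in 5 to 7 of 9 sets, and none of them met the rule.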

How the data were processed

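Single-cell read counts were taken as deposited by the authors, with 35583 genes per table and 1 table per TH number. Per the submitters' processing notes, STAR 2.5.3a, Trim Galore and mm10 were used. Per the file headers, the columns of TH 2 and TH 3 came from alignments reduced to top hits, and those of TH 1 carry no such note. How reads were counted, and whether by strand, is not given in the sources used here. In 1 deposited column, 2 values were expected counts (not whole) and were rounded. Of 1111 labelled cells, 1045 had a column, and 66 were not analysed here. The 1045 columns of standard deviations were not used. The filter kept 987 cells, with 50098 to 2264846 reads each.

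Reads were summed per class and set, without the 4 class II genes, and scaled to CPM with TMM factors (edgeR 4.0.16, R 4.3.3). Positive and negative CPM + 1 were compared as a log2 ratio in every TH number and the ratios averaged, so positive and negative cells are paired by set. The labels name no animal, so edgeR and DESeq2 1.42.0 served as alternatives only. Shares of cells with a read used counts thinned to 50000 reads per cell (seeded). List medians on sums used genes with a mean of at least 5 CPM. Scripts were tested on simulated data. Each library was a single sorted well, and neither a doublet caller nor clustering was used. Gene names and coordinates are those of the tables, and 35546 IDs were found in GENCODE M21.

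Named genes were the 10 largest rises and falls over all groups that met the size rule and the 3 largest of each within a group. All abundant class II presentation genes were added, as were the extremes of each list. Members of the disease-associated, homeostatic, class I, interferon and chemokine lists beyond these, and the genes found in 9 of 9 sets, were chosen after their values were seen. The classes, the 14 gene lists and the 11 marker lists were chosen with earlier results of these data known. The levels per cell and the shares at equal depth were added after seeing the data.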

Additional observations from a re-analysis of the deposited data

Results flagged for a closer look

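For 4 named genes all 3 TH numbers of 1 plasma group lay above 0 in the log2 ratio of positive to negative sums and all 3 of another group below 0. None of these differences between groups was tested. Trub1 had 3.34 in plasma none and −3.98 in plasma high. Coq7 had 4.51 in plasma low, −3.26 in plasma none and −3.47 in plasma high. Ifi30, the thiol reductase that unfolds antigen in endosomes, had 0.44 in plasma low and −1.51 in plasma none. March1 had 0.75 in plasma low against −0.82 in plasma high, the same directions as its shares of cells. With the cell holding the most reads of the gene left out of each sum, the positive values turned to −0.91 for Trub1, −0.47 for Ifi30 and −0.92 for March1, so only Coq7, at 2.005 in plasma low, kept opposite directions.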

How the results depend on the processing

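The share of positive cells was highest in plasma high under each class definition tried. For cells with Cd74, whatever their H2 reads, it was 4.31%, 5.13% and 10.7% in plasma none, low and high. For cells with an H2 gene, whatever their Cd74 reads, it was 3.18%, 2.56% and 5.87%. Cells with H2 reads and no Cd74 read numbered 11, 8 and 9, so this kind was not most numerous in plasma high. With at least 10 reads the share of positive cells was 6.27% in plasma low and 12.4% in plasma high. With at least 2 reads it was 13.5% in plasma high, and with at least 100000 reads and 1000 genes 14.2% there. At 50000 reads per cell it was 6.79% and 13.3% in plasma low and high. Without 1 TH number the share ran from 6.53% to 8.58%, 7.24% to 7.73% and 13.7% to 13.9%. The fold of the disease-associated list in the median cell ran from 1.04 to 1.22 in plasma none, 1.06 to 1.22 in plasma low, 1.5 to 1.80 in plasma high and 1.25 to 1.36 over all. It was 1.34 in plasma none without Ctsb, Ctsd and Ctsz, and in plasma low 1.43 with at least 10 reads asked of positive cells and 0.971 with the stricter cell filter. The cause was not tested.

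The percent of tested genes past the size rule depended on almost every choice. With no filter on low genes it was 28.4%, 24.3% and 19.2% in plasma none, low and high and 11.2% over all groups (4427, 3833, 3047 and 2011 genes). Without the richest cell, a larger part of a positive than of a negative sum, it was 57.7%, 51.7%, 36.4% and 49.3%, and the median log2 ratio of the disease-associated list over all groups turned from 0.31 to −0.13. With 1 TH number left out it ran from 33.3% to 39.1%, 31.3% to 32.7%, 27.6% to 28.8% and 19.1% to 23.99%. Over all groups DESeq2 size factors gave 5.09% and equal cell numbers 1.94%. With the set as a replicate block, edgeR's quasi-likelihood test called 0 genes in each plasma group (11.2%, 2.96% and 3.07% of genes at an unadjusted p under 0.05) and 5.67% over all groups, all lower, and DESeq2 called 35.5%, 22.2%, 11.3% and 34.1%, nearly all lower. Without the block edgeR called 0, 0, 0 and 0.7504% (79 genes). The log2 ratio turned for 5 of the rises named by size without the richest cell, to −0.61 for Tmem150a, −1.22 for Zfp384, −0.91 for Trub1, −0.28 for Gbp2 and −0.35 for Lpl. Among other values printed it also turned to −0.07 for Axl, −0.92 for March1 and −0.47 for Ifi30 in plasma low and to −0.21 for Ccl12 in plasma high. Of the alternatives to single-gene and list values, 1798 kept their call and direction, 87 fell under the rule and 83 moved by more than their spread. The small number of positive cells, 6 to 14 per set, limits what can be seen of genes read in few cells.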

Other observations

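At 50000 reads per cell, 15 of 6285 genes (0.239%) were read in a larger share of positive than of negative cells in 9 of 9 sets, and 16 (0.255%) in a smaller share. Besides Apoe and Taok3, the first set held Sirpa, the receptor for the signal CD47 that restrains phagocytosis (100% against 96.1%), and Tlr3, the endosomal sensor of double-stranded RNA (29.3% against 20.6%). It also held the interferon-induced gene Trim30a (28.3% against 18.8%), Tmem59 (89.1% against 74.6%), the endoplasmic reticulum gene Derl1 (55.4% against 41.2%) and Hprt, an enzyme of purine salvage (40.2% against 27.7%). The second set held the mitochondrial ribosomal protein genes Mrps5 (1.09% against 10.3%) and Mrpl41 (4.35% against 12.3%), the Polycomb gene Suz12 (3.26% against 10.6%) and Gabarapl2, which takes part in autophagy (19.6% against 28.7%). The counts in the 2 directions were nearly even, and these genes carry no test.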
